A study of Mus musculus with 6 samples.

Results

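Keratins, hair genes and cornified envelope genes were described in bulk RNA-seq libraries of healing mouse flexor digitorum longus (FDL) tendon. The members were taken by gene symbol alone, as all numbered keratins (Krt), numbered keratin-associated proteins (Krtap), small proline-rich (Sprr) and late cornified envelope (Lce) genes, together with loricrin (Lor), filaggrin (Flg), involucrin (Ivl), Dsg1a and Dsc1. This gave 150 of the 53819 genes listed, of which 51 were grouped as epidermal, 76 as hair and 23 as neither. A count in at least 1 library was present for 116 members, 34 had none, and 14 had a count in all 6 libraries.

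The libraries came from 3 DTRScxLin mice (Scx-Cre+; DTR F/+, named DTR1 to DTR3 here) and 3 WT littermates (Scx-Cre-; DTR F/+, named WT1 to WT3), with 1 FDL tendon per library. All mice carried the floxed-stop diphtheria toxin receptor allele (DTR F/+), and the non-inducible Scx-Cre switches it on in any cell with a history of Scleraxis expression. Male and female mice had the FDL tendon transected and repaired in the hind paw at 10 to 12 weeks of age, through a skin incision that was closed by suture, and both genotypes received 5 daily local injections of diphtheria toxin (100 ng each) on days 14 to 18. Tendons were harvested at D28 post-surgery by the study's account, although the sample titles name D28 post-depletion. The libraries held 45184255, 47570157 and 44104578 counts in WT1 to WT3 and 47125566, 48854310 and 42744138 in DTR1 to DTR3. The 10 tendon markers examined, Scx, Tnmd and Mkx among them, had counts in every library and together took 3.88% to 5.66% of the counts, and the tissue label was met in that sense in all 6 libraries.

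Keratins are the intermediate filament proteins of epithelial cells and pair as 1 acidic (type I) and 1 basic (type II) chain. In skin, basal keratinocytes express Krt5 and Krt14 and replace them with Krt1, Krt10 and, later, Krt2 as they move outward, before loricrin, filaggrin, involucrin, Sprr and Lce proteins build the cornified envelope of the dead outer layer. Hair follicles use other keratins, in the inner root sheath around the growing shaft and in the shaft itself, where keratin-associated proteins cross-link them. Tendon fibroblasts are mesenchymal cells and are not known as a source of these genes, so their counts were given library by library as a measure of epidermal and follicle RNA in each sample. In bulk samples, fewer cells of a type and less RNA per cell cannot be told apart, and whether skin was carried along at harvest was not tested.

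The 250 bases before the annotated start of 6 members are shown because these genes stand for the suprabasal, basal, envelope and root sheath groups whose counts are described next. They were copied from RefSeq on GRCm38.p6, all on the minus strand and written 5′ to 3′ in the direction of transcription. Capitals mark the letters TGACTCA or its reverse complement TGAGTCA (a site known for AP-1 factors, which act in keratinocyte differentiation). They also mark TATAAA (a form of the TATA box) within the last 50 bases. Other forms of that box were not searched for. The windows were chr11:99389365-99389614 for Krt10, chr15:101818170-101818419 for Krt2, chr15:101712906-101713155 for Krt5, chr3:92083143-92083392 for Lor, chr3:92485882-92486131 for Sprr1a and chr15:101743098-101743347 for Krt71.
Krt10: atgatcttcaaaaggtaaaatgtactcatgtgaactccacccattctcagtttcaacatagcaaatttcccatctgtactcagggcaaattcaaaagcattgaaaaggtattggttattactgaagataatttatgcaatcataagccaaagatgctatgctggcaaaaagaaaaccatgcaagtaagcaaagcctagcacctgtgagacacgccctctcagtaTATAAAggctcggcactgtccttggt
Krt2: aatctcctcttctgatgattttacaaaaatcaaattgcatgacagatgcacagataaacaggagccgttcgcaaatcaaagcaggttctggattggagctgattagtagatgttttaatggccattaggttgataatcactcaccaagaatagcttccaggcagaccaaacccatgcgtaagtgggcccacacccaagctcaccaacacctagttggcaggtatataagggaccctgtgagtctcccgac
Krt5: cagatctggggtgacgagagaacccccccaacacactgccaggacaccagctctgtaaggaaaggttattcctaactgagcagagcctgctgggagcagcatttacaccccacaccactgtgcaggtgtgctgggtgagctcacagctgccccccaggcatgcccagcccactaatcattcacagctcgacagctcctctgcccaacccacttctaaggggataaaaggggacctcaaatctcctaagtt
Lor: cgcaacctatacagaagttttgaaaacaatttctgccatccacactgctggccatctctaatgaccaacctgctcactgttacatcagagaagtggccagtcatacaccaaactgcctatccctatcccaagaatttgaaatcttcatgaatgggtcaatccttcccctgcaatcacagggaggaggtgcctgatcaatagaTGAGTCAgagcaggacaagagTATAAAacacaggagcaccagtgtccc
Sprr1a: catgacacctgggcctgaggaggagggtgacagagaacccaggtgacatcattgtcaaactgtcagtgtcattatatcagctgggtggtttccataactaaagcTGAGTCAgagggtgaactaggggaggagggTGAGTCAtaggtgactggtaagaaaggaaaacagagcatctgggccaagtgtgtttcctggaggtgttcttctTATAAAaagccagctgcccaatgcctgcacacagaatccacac
Krt71: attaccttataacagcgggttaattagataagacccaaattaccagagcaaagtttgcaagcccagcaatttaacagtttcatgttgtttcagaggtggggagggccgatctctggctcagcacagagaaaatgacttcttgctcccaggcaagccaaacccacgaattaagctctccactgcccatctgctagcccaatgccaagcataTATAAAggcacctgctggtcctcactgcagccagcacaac

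Of the 150 members, 145 were found in the RefSeq gene table and 119 had a promoter sequence. TGACTCA on either strand lay in the 250-base window of 10 of 42 epidermal members (23.8%), 6 of 63 hair members (9.52%) and 1 of 14 members of neither group (7.14%). It lay in that of 5.16% of all 26742 genes with a promoter sequence. A gene was counted if any of its promoters held the letters. TATAAA, read on the strand of the gene in the last 50 bases, lay in 15 of 42 epidermal (35.7%), 43 of 63 hair (68.3%) and 3 of 14 other members (21.4%), against 3.14% of the 26742 genes. Among the 25 epidermal members with a promoter and at least 100 counts in WT1, TGACTCA lay in 4 (16%) and TATAAA in 8 (32%). Many members arose as neighbouring copies of each other, so these counts are not independent, and a match describes letters and not a working site. Sprr1a held 2 copies of TGAGTCA and Lor 1, and the Krt10, Krt2, Krt5 and Krt71 windows held neither orientation.

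Epidermal counts differed by orders of magnitude between libraries, and the difference did not follow genotype. The 51 epidermal members took 0.452% of the counts in WT1, 0.308% in WT2 and 0.00044% in WT3, and 0.000378% in DTR1, 0.000499% in DTR2 and 0.0431% in DTR3. WT1, WT2 and DTR3 were therefore high and WT3, DTR1 and DTR2 low, with both genotypes on each side. A count was present for 42, 42 and 8 of the 51 genes in WT1 to WT3 and for 4, 9 and 38 in DTR1 to DTR3. Krt10 had the most counts over the 6 libraries, although Krt2 had more in WT2 and DTR3. Leaving out Krt10 gave 0.309%, 0.202% and 6.12e-05% in WT1 to WT3 and 8.49e-06%, 3.28e-05% and 0.0352% in DTR1 to DTR3, so most of what remained in the low libraries was Krt10.

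Hair members were scarce throughout and stood out in WT1 alone among the WT libraries. The 76 hair members had 1104 counts in WT1 (0.00244%), 44 in WT2 (9.25e-05%) and 20 in WT3 (4.53e-05%), and 31 in DTR1 (6.58e-05%), 16 in DTR2 (3.28e-05%) and 157 in DTR3 (0.000367%). WT2 was thus high in epidermal counts and near the low libraries in counts of these hair genes, and hair genes outside the symbol rule, which are given further on, were mixed in this respect. Members grouped as neither followed the epidermal genes only in part. Wound and follicle keratins were high in WT1, WT2 and DTR3, whereas simple epithelial keratins together lay between 0.000157% and 0.00122% in every library. Single genes of that group differed, and Krt23 had 132, 73 and 0 counts in WT1 to WT3 and 5, 12 and 38 in DTR1 to DTR3.

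**Figure D1:**
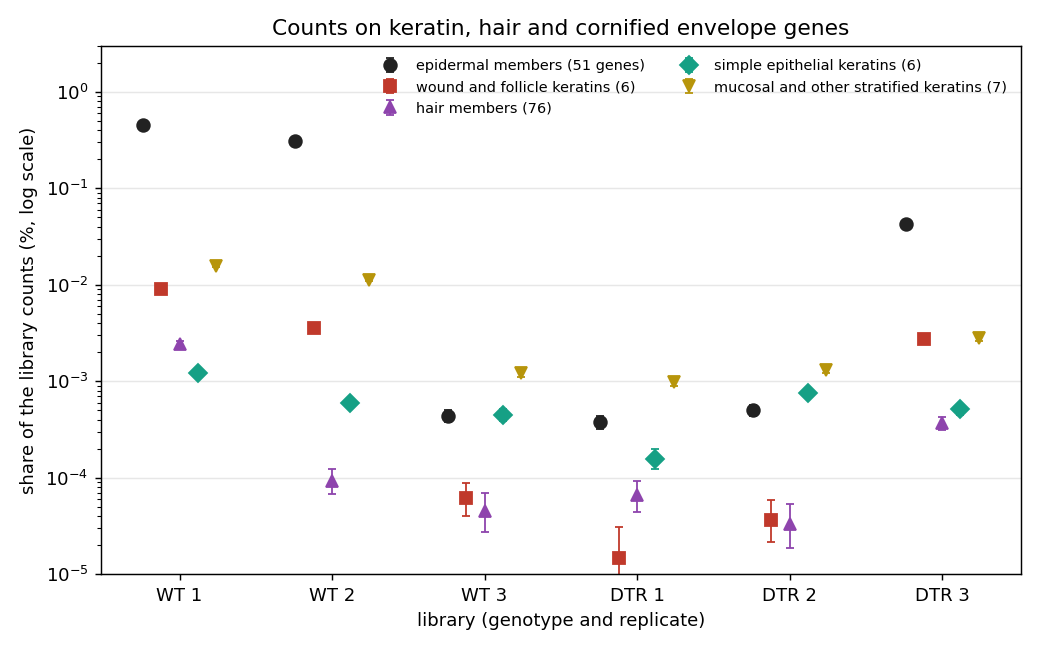
Share of each library's counts (%, log scale) on 5 groups of members, with exact 95% Clopper-Pearson intervals that cover counting error only. Epidermal members reach 0.452% in WT1, 0.308% in WT2 and 0.0431% in DTR3 and stay at or below 0.000499% in the other 3 libraries, while hair members peak in WT1 at 0.00244%.

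The basal keratins Krt5 and Krt14 form the filament pair of dividing keratinocytes. Krt14 had 9786, 4856 and 0 counts in WT1 to WT3 and 1, 0 and 2082 in DTR1 to DTR3. Krt5 had 9198, 4664 and 4 counts in WT1 to WT3 and 0, 0 and 2044 in DTR1 to DTR3. The pair was all but missing from WT3, DTR1 and DTR2, and the genotypes overlapped for both genes. Where they were counted in number, they were balanced, Krt14 making up 51.5% of the pair's counts in WT1, 51% in WT2 and 50.5% in DTR3. Krt15, a further basal keratin that is also found in the follicle bulge, had 1134, 565 and 0 counts in WT1 to WT3 and 0, 0 and 213 in DTR1 to DTR3.

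Suprabasal keratins were the most abundant members. Per length, in CPM per kilobase of exon (CPM being counts scaled to a common library total), Krt10 reached 672 and Krt2 500 in WT1, above Krt14 at 123, Krt1 at 108 and Krt5 at 92.7. Krt10 had 64212, 50444 and 167 counts in WT1 to WT3 and 174, 228 and 3377 in DTR1 to DTR3. It was the only epidermal member with at least 10 counts in every library. Krt2, a late suprabasal keratin that in mice is abundant in ear, tail and sole skin, had 59083, 53020 and 6 counts in WT1 to WT3 and 0, 0 and 5134 in DTR1 to DTR3. Krt1, the usual partner of Krt10, had 21555, 8264 and 1 counts in WT1 to WT3 and 0, 0 and 844 in DTR1 to DTR3. Both type II genes were thus at or near 0 where Krt10 still had over 100 counts. Krt10 overlaps the antisense gene Gm11940 in GENCODE vM21, which had at most 12 counts in any library.

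Krt9, the suprabasal keratin of palm and sole skin, did not follow the others. It had 3, 207 and 0 counts in WT1 to WT3 and 0, 2 and 47 in DTR1 to DTR3, so WT1, the library highest in Krt10, Krt2 and Krt1, was near 0 for Krt9. The gene did not pass the filter on low counts.

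The envelope genes and desmosomal cadherins were higher in WT1, WT2 and DTR3 than elsewhere, as were Krt10, Krt2 and Krt1, but not in fixed proportion to these keratins. Lor, the main protein of the cornified envelope, had 5698, 4038 and 3 counts in WT1 to WT3 and 0, 1 and 801 in DTR1 to DTR3. Flg, whose product bundles keratin filaments and yields the moisturizing amino acids of the outer layer, had 5079, 4226 and 0 counts in WT1 to WT3 and 0, 0 and 1057 in DTR1 to DTR3. Ivl, an early scaffold of the envelope, reached 381 normalized counts in WT1, 182 in WT2 and 17.5 in DTR3 and at most 0.957 elsewhere. All 3 genes were ordered WT1, WT2, DTR3. Dsg1a and Dsc1 encode adhesion proteins of the desmosomes of the upper epidermis. Dsg1a had 5377, 4011 and 0 counts in WT1 to WT3 and 0, 1 and 396 in DTR1 to DTR3. Dsc1 had 4623, 3132 and 1 counts in WT1 to WT3 and 0, 0 and 83 in DTR1 to DTR3. Dsc1 was lower in DTR3, relative to WT1, than any other epidermal member with at least 100 counts in WT1.

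Of the 21 Lce genes, which cluster together and encode late envelope proteins, 20 had a count somewhere and their counts summed to 15931, 7827 and 0 in WT1 to WT3 and 2, 1 and 2213 in DTR1 to DTR3. Lce1a1 led with 2058 normalized counts in WT1, 953 in WT2 and 266 in DTR3 and none in the other 3 libraries. Of the 17 Sprr genes, which encode cross-linking bridges of the envelope, 13 had a count, with sums of 1991, 1269 and 12 in WT1 to WT3 and 1, 10 and 103 in DTR1 to DTR3. Sprr1b led with 1377 normalized counts in WT1, 836 in WT2 and 43.2 in DTR3 and none elsewhere, and Sprr1a had 341, 133 and 9.36 in WT1 to WT3 and 1.03, 3.83 and 25.7 in DTR1 to DTR3. The Lce1 and Sprr2 genes are near-identical copies, as are Krt6a and Krt6b, and Krt14, Krt16 and Krt17 resemble each other, so reads may have been split between copies in ways the counting does not show.

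**Figure D2:**
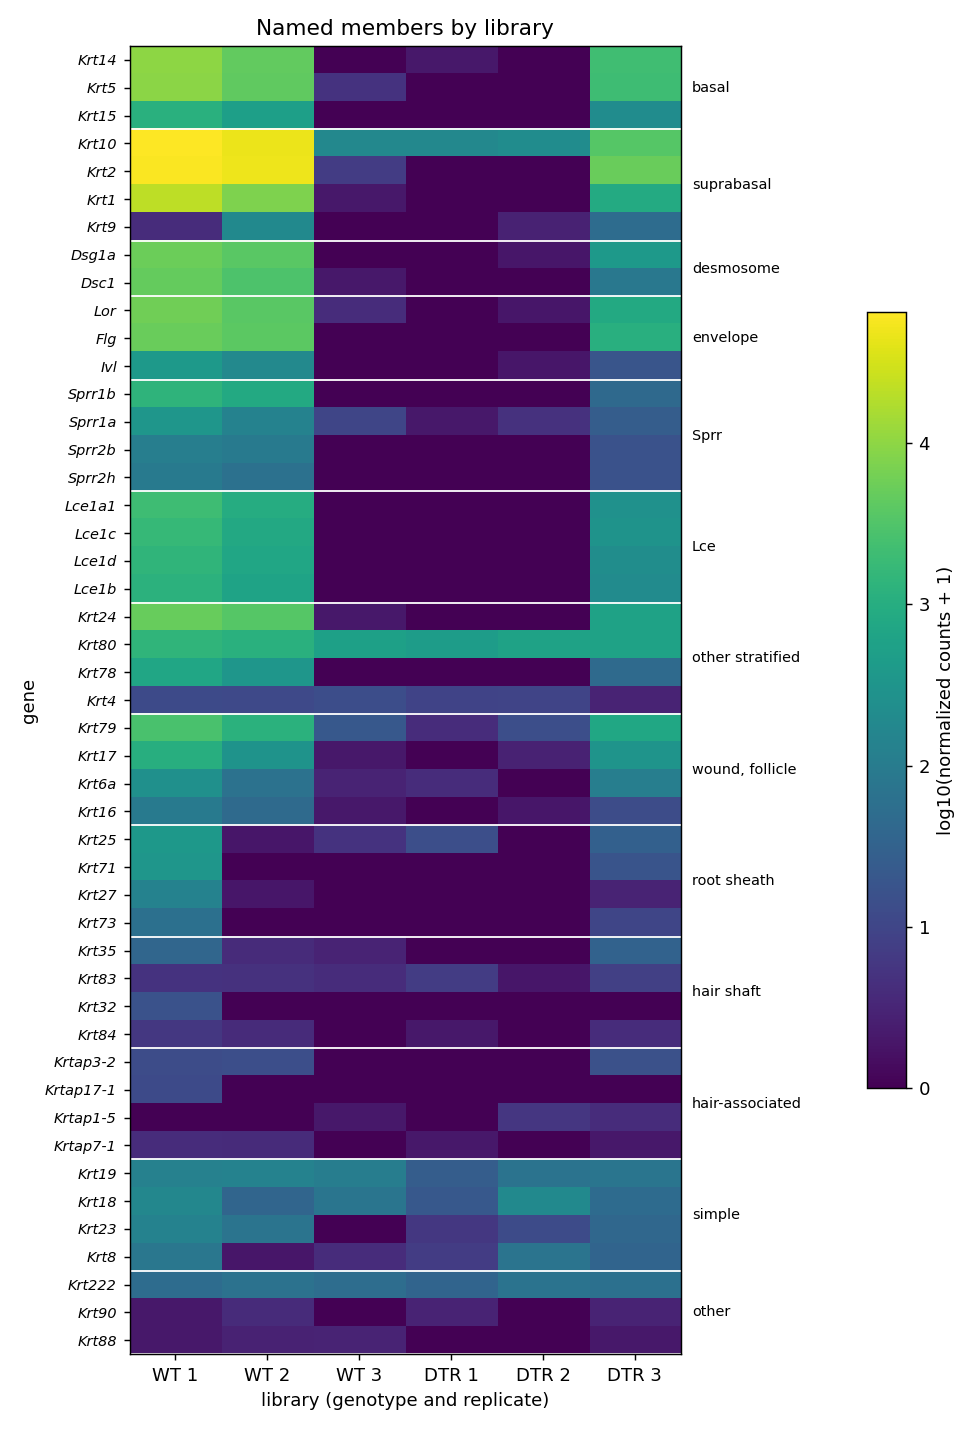
Normalized counts (log10 of the count plus 1, colour) of the 47 named members in the 6 libraries, grouped by role as written at the right. WT1, WT2 and DTR3 are bright for the basal to Lce groups, the root sheath keratins are bright in WT1, and Krt80, Krt19, Krt18 and Krt222 are seen in all libraries.

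Keratins of wound-edge and follicle epithelium were again highest in WT1. Krt17 had 1036, 292 and 1.04 normalized counts in WT1 to WT3 and 0, 1.91 and 309 in DTR1 to DTR3. Krt6a, which is induced at wound edges and is constitutive in the follicle companion layer, had 265, 65 and 2.08 in WT1 to WT3 and 3.09, 0 and 112 in DTR1 to DTR3. DTR3 was near WT2 for Krt17 and above it for Krt6a, and it was above WT2 for none of the 30 epidermal members tested. Krt79, found in the upper follicle, had 2672, 1194 and 19.8 in WT1 to WT3 and 3.09, 13.4 and 742 in DTR1 to DTR3.

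Inner root sheath keratins were largely those of WT1. The 8 genes summed to 948, 12 and 10 counts in WT1 to WT3 and 15, 1 and 64 in DTR1 to DTR3. Krt25 had 362, 1 and 4 counts in WT1 to WT3 and 13, 0 and 28 in DTR1 to DTR3. Krt71 had 337, 0 and 0 counts in WT1 to WT3 and 0, 0 and 16 in DTR1 to DTR3. Krt27 had 134, 1 and 0 counts in WT1 to WT3 and 0, 0 and 2 in DTR1 to DTR3. WT2, with 4664 counts of Krt5, had none of Krt71. Hair shaft keratins (15 genes) summed to 82, 14 and 5 counts in WT1 to WT3 and 15, 9 and 60 in DTR1 to DTR3, led by Krt35 with 37 counts in WT1 and 31 in DTR3. The 53 Krtap genes summed to 74, 18 and 5 counts in WT1 to WT3 and 1, 6 and 33 in DTR1 to DTR3. Of these, 28 had a count at all, and Krtap3-2 was the highest, with 14.4 normalized counts in DTR3 and 13.2 in WT2. Krt31, the cortex keratin of the shaft, had 4 counts in WT1, 2 in DTR2 and 1 in DTR3.

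Sharp differences between neighbouring genes were seen within the keratin clusters. In the RefSeq order, the root sheath genes Krt25, Krt26, Krt27 and Krt28 stand between Krt24 and Krt10, and Krt71, Krt72 and Krt73 stand between Krt5 and Krt2. In WT2, Krt24 had 3790 counts and Krt10 50444, while Krt25, Krt26, Krt27 and Krt28 between them had 1, 0, 1 and 10. On the type II side of WT2, Krt5 had 4664 counts and Krt2 53020, with 0 for each of Krt71, Krt72 and Krt73. In WT1 the same 3 genes had 337, 4 and 59 counts.

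**Figure D3:**
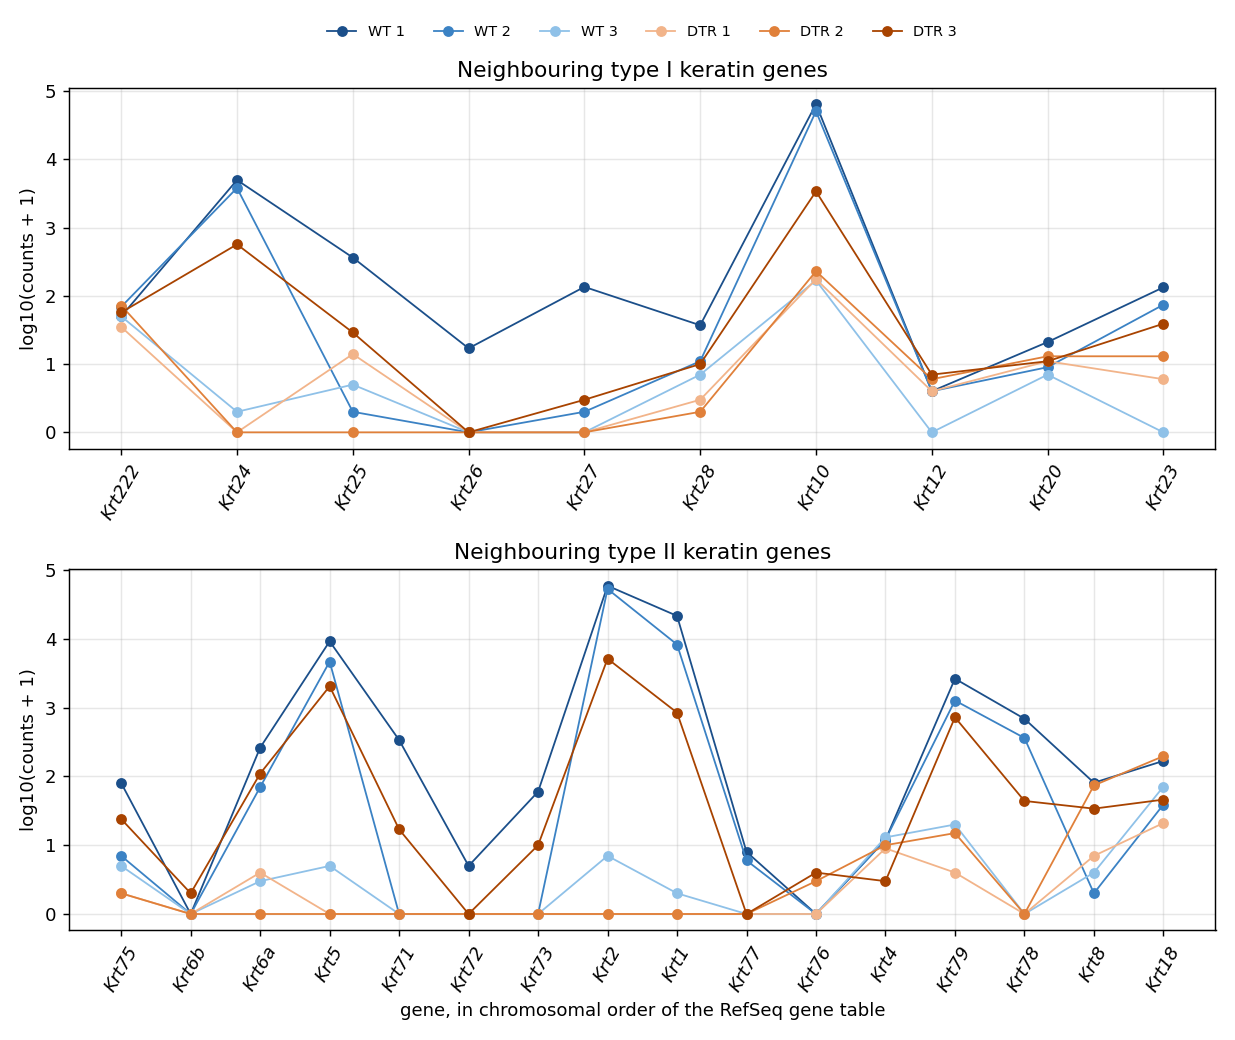
Counts (log10 of the count plus 1) of neighbouring type I (top) and type II (bottom) keratin genes in chromosomal order, 1 line per library. Lines of WT1, WT2 and DTR3 peak at Krt24 and Krt10 and at Krt5, Krt2 and Krt1, and the WT2 line falls to 0 at Krt71, Krt72 and Krt73 while that of WT1 stays at 337, 4 and 59 counts.

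Of the remaining keratins, some ran with the epidermal genes and some did not. Krt24 had 4957, 3790 and 1 counts in WT1 to WT3 and 0, 0 and 565 in DTR1 to DTR3, and Krt78, a suprabasal keratin, had 688, 361 and 0 in WT1 to WT3 and 0, 0 and 43 in DTR1 to DTR3. Krt76 had 2 counts in DTR2 and 3 in DTR3 and none elsewhere. Krt18 and Krt8, the pair of simple epithelia, were highest in WT1 and DTR2. Krt18 had 167, 38 and 70 counts in WT1 to WT3 and 20, 196 and 45 in DTR1 to DTR3. Krt8 had 80, 1 and 3 counts in WT1 to WT3 and 6, 73 and 33 in DTR1 to DTR3. Krt222 was even across the libraries, with 49, 68 and 49 counts in WT1 to WT3 and 34, 71 and 56 in DTR1 to DTR3. Krt80, a keratin of differentiating epithelia, had 1420, 1207 and 527 counts in WT1 to WT3 and 449, 628 and 569 in DTR1 to DTR3, and it overlaps an antisense gene, Gm35853, that had 61 to 127 counts. Whether the counting used strand was not stated, so the counts of such pairs cannot be told apart.

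The 3 libraries high in epidermal counts did not hold the same mixture. Basal keratins made up 12.2% of basal plus suprabasal keratin counts in WT1 (95% exact interval 12 to 12.4), 8.26% in WT2 (8.11 to 8.42) and 31.6% in DTR3 (30.8 to 32.4). Lce genes made up 7.81%, 5.33% and 12% of the epidermal counts in WT1, WT2 and DTR3. Krt1 was 26.7% of Krt1 plus Krt2 in WT1 (26.4 to 27.0), 13.5% in WT2 (13.2 to 13.8) and 14.1% in DTR3 (13.2 to 15). WT1 stood apart in Krt1, and DTR3 in its larger basal and Lce shares. Krt9 made up 0.00207% of suprabasal keratin counts in WT1 (0.000427 to 0.00605), 0.185% in WT2 (0.161 to 0.212) and 0.5% in DTR3 (0.368 to 0.664). Root sheath keratins made up 4.5% of root sheath plus basal counts in WT1 (4.22 to 4.79), 0.119% in WT2 (0.0614 to 0.208) and 1.45% in DTR3 (1.12 to 1.85). Each of these values rests on 1 library, and the intervals cover counting error only, so no difference between mice or genotypes was tested.

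**Figure D4:**
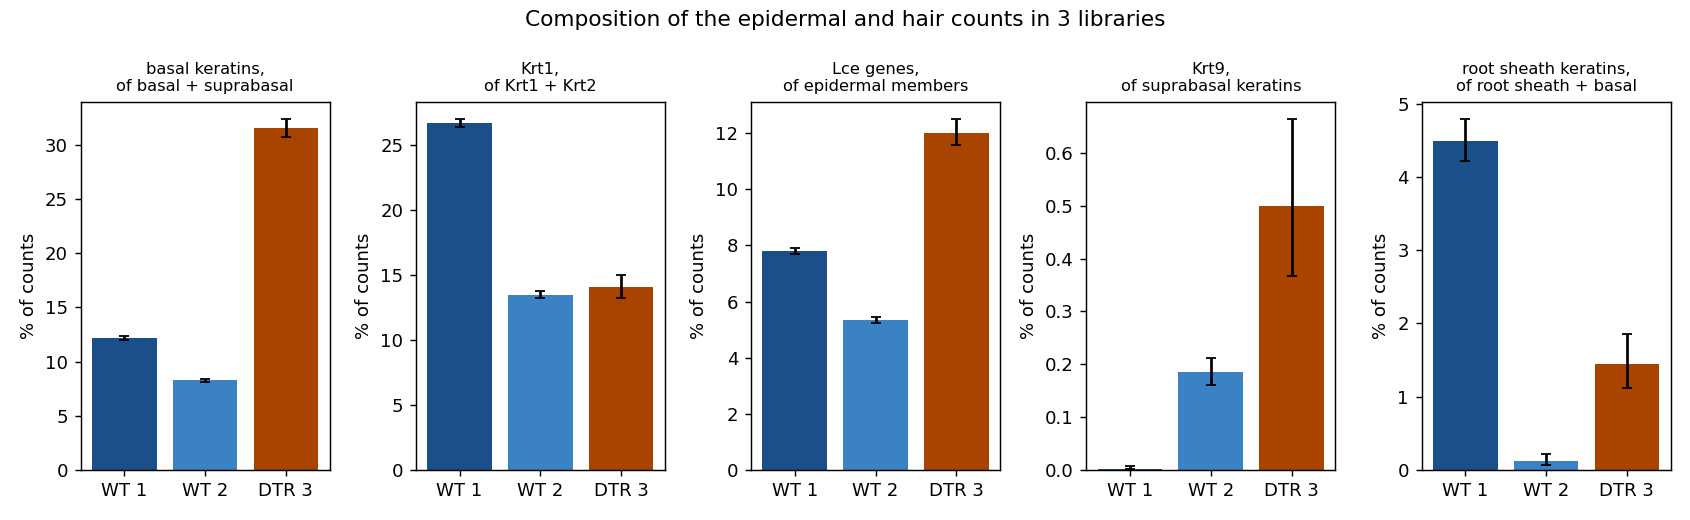
Shares within the epidermal and hair counts (%, bars from 0) in WT1, WT2 and DTR3, with exact 95% Clopper-Pearson intervals for counting error. DTR3 has the highest basal share (31.6%), WT1 the highest Krt1 (26.7%) and root sheath (4.5%) shares, and Krt9 is near 0 in WT1 (0.00207%).

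Set against WT1 gene by gene, the epidermal members of DTR3 differed widely, within and between the layers they mark. Among the 30 epidermal members with at least 100 counts in WT1, the normalized count in WT2 was a median 47.9% of that in WT1 (18 to 83.2), and that in DTR3 was 13.2% (1.82 to 22.5). In DTR3 the 3 basal keratins were at 19% to 22.5% of WT1, while Krt1, Krt10 and Krt2 were at 3.96% to 8.8% and the 2 desmosomal cadherins at 1.82% and 7.46%. The envelope genes spanned nearly the whole range, with Flg at 21.1%, Lor at 14.2%, Ivl at 4.59% and Sprr1b at 3.14%. Krt6a, Krt17 and Krt79, from outside the epidermal group, were at 27.8% to 42.3%. In WT2 the order was another, with basal keratins at 46% to 47%, Krt2 at 83.2% and Krt1 at 35.6%. The 16 Lce genes lay at a median 46.9% in WT2 and 13.5% in DTR3. Median values in WT3, DTR1 and DTR2 were 0, with none of these 30 epidermal members above 2.74%. The 30 were chosen by their counts in WT1, which is also the reference, so values below 100% were favoured by the choice.

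**Figure D5:**
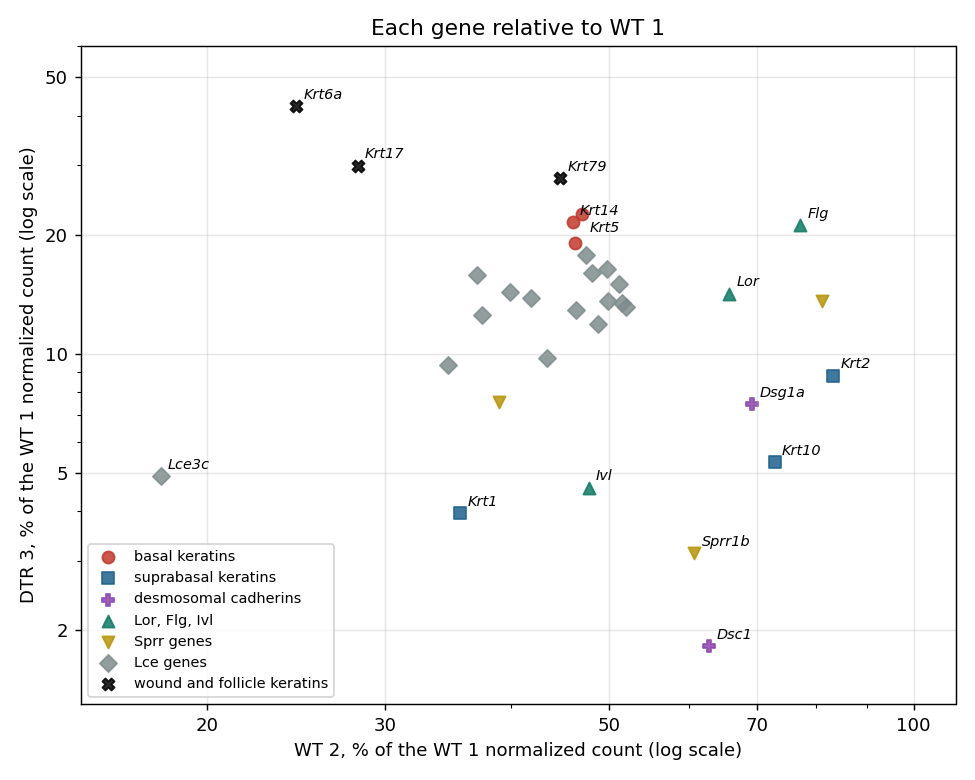
Normalized count of each epidermal member and of Krt6a, Krt17 and Krt79 in WT2 (x axis) and DTR3 (y axis) as % of WT1, both axes logarithmic, for members with at least 100 counts in WT1. Basal keratins sit near 46% and 20%, Krt10 and Krt2 lie to the right and lower, and Dsc1 is lowest at 1.82% in DTR3.

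DTR and WT were then compared by edgeR's quasi-likelihood test across all 17496 genes that passed the filter on low counts. Of the 150 members, 47 passed (30 epidermal, 2 hair and 15 of neither) and 103 did not, and 36 of the 47 had at least 1 library at 0, so most had passed through their high libraries. No member was called at a Benjamini-Hochberg adjusted p under 0.05, nor was any other gene (0 of 17496, 0%). At an unadjusted p under 0.05 there were 2 members of 47 against 1918 of all genes (11%). DESeq2 called 466 of 17564 genes (2.65%) and none of the 50 members to which it gave an adjusted p, and it gave no p for 4 further members with counts.

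All 30 tested epidermal members were lower in DTR on average and none passed the test. Their median log2 fold change (DTR over WT) was -3.50, against 0.01 over all genes tested, with edgeR adjusted p from 0.466 to 0.772. Krt10 had a log2 fold change of -4.87 (SE 2.54, edgeR adjusted p = 0.534), Krt14 of -2.76 (SE 3.06, edgeR adjusted p = 0.772) and Lor of -3.54 (SE 2.86, edgeR adjusted p = 0.675). Without DTR3 these values moved to -7.56, -12.93 and -12.33, and since the DTR libraries that remain are at or near 0 for Krt14 and Lor, their size depends on the fit and is no bound. No epidermal member separated the genotypes, since WT3 lay among the DTR libraries. Without WT1, WT2 and DTR3, Krt10 was the only epidermal member that passed the filter, with a log2 fold change of 0.20. These libraries were left out after their epidermal counts were seen and 1 WT and 2 DTR libraries remained, so the loss of the difference follows from the choice and tests nothing. The 30 tested epidermal members all ranked WT1, WT2, DTR3 and then the other 3 libraries. So did 5 of the 15 tested members of neither group and 2.89% of all genes tested. This order was read from the same values, and members near 0 in WT3, DTR1 and DTR2 could pass the filter only through the other libraries, so it is a description. Krt9, which did not pass, broke it.

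Each DTR library lay below each WT library for 2 of the 47 tested members, against 7.85% of all genes tested, and above for 0, against 8.96%. Krt19, a keratin of simple and ductal epithelia, had 125, 146 and 104 counts in WT1 to WT3 and 25, 69 and 71 in DTR1 to DTR3. Its log2 fold change was -1.17 (SE 0.39), with an edgeR p of 0.0179 before and 0.389 after Benjamini-Hochberg adjustment, and it did not follow the epidermal order. Krt4, a mucosal keratin, had 11, 11 and 12 counts in WT1 to WT3 and 8, 9 and 2 in DTR1 to DTR3, with a log2 fold change of -0.83 (SE 0.56, edgeR adjusted p = 0.601). Krt80 had a log2 fold change of -0.92 (SE 0.36, edgeR adjusted p = 0.449), and its DTR values lay on both sides of WT3. The hair members Krt25 and Krtap3-2 had log2 fold changes of -3.14 (SE 2.38, edgeR adjusted p = 0.652) and -0.83 (SE 1.54, edgeR adjusted p = 0.875), and Krt25 turned to 2.43 without WT1. Krtap3-2, at 0 in DTR1 and DTR2, moved to -6.12 without DTR3, a size that depends on the fit, and to -0.24 without DTR2. Krt4 was -0.42 without DTR3.

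Epidermal genes outside the symbol rule were examined as a list of 40, all of which were tested. They took 0.322%, 0.185% and 0.0323% of counts in WT1 to WT3 and 0.0209%, 0.0253% and 0.0544% in DTR1 to DTR3, and a few genes carried much of the sum in the low libraries, such as Itga6 (5271 counts in WT3), Sbsn (3184 counts) and Itgb4 (2392 counts). Gene by gene, the median was 55.6% of WT1 in WT2 and 11.7% in DTR3, and 0.812%, 0.674% and 0.722% in WT3, DTR1 and DTR2. Of the 40, 35 ranked in the same order, WT1, WT2, DTR3 and then the rest, which 2.89% of all genes tested did. The exceptions included Sbsn, Ppl, Itgb4 and Itga6. The order had been read from these data. Genes at 0 in WT3, DTR1 and DTR2, such as Hrnr, could pass the filter only through the other libraries. The count of 35 is therefore a description and no test. Over the 40, the median log2 fold change was -3.42, none was called by edgeR, 3 had an unadjusted p under 0.05 (11% of all genes) and DESeq2 called 1, Sbsn (2.65% of all genes). The calcium-binding Calm4 had 18205, 8702 and 1 counts in WT1 to WT3 and 2, 0 and 1907 in DTR1 to DTR3. The profilaggrin relative Hrnr had 15105, 8280 and 0 counts in WT1 to WT3 and 0, 0 and 1151 in DTR1 to DTR3. Dmkn, a secreted protein of differentiating keratinocytes, had 14903, 8897 and 485 counts in WT1 to WT3 and 143, 264 and 1064 in DTR1 to DTR3. Itga6, an integrin of basal keratinocytes that endothelial and Schwann cells express as well, had 5211, 5480 and 5271 counts in WT1 to WT3 and 5177, 4939 and 5055 in DTR1 to DTR3, and its log2 fold change was -0.06. Trp63, the transcription factor of stratified epithelia, had 858, 608 and 59 counts in WT1 to WT3 and 32, 189 and 263 in DTR1 to DTR3. It was thus counted in the 3 libraries where Krt14 had at most 1 count.

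Other skin-associated cell markers moved with the epidermal counts to different degrees. The 4 sebaceous gland markers (Mc5r, Elovl3, Awat1 and Awat2) summed to 1202, 669 and 98 counts in WT1 to WT3 and 34, 143 and 336 in DTR1 to DTR3, and Awat1 was at 0 in WT3, DTR1 and DTR2. The Langerhans cell markers Cd207 and Epcam summed to 284, 142 and 5 counts in WT1 to WT3 and 20, 9 and 102 in DTR1 to DTR3, with Epcam, which other epithelial cells express too, the more abundant. The 7 pigment cell markers held only 37 to 102 counts in any library, and Tyr had at most 3. The 18 hair genes outside the rule took 0.00678%, 0.0044% and 0.00239% of counts in WT1 to WT3 and 0.00231%, 0.00194% and 0.00348% in DTR1 to DTR3, but the excess of WT2 over the low libraries was mostly Tgm3, with 783 counts in WT2 against 5, 4 and 5 in WT3, DTR1 and DTR2. Tgm3 is also among the 40 epidermal genes. Without it, a setting chosen after seeing the data, the shares were 0.00423%, 0.00275% and 0.00237% in WT1 to WT3 and 0.0023%, 0.00193% and 0.00316% in DTR1 to DTR3, with WT2 near WT3. Single genes differed. Foxn1, a transcription factor of the follicle, had 76, 53 and 2 counts in WT1 to WT3 and 0, 0 and 13 in DTR1 to DTR3. Hoxc13, a regulator of hair keratin genes, had 45, 40 and 11 counts in WT1 to WT3 and 8, 5 and 10 in DTR1 to DTR3. Sox21, a transcription factor of the hair cuticle, had 89, 77 and 0 counts in WT1 to WT3 and 0, 0 and 8 in DTR1 to DTR3. Of the 18, 11 were tested and 3 were in the epidermal order. Lgr5, Tgm3, Tchh and Dlx3 were the most abundant of them, and Tgm3 was 1 of the 3. Lgr5, a stem cell marker of the follicle that was counted in all libraries, had 514, 452 and 419 counts in WT1 to WT3 and 525, 535 and 808 in DTR1 to DTR3.

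Markers of other tissues that may be taken with a tendon had other orders of libraries. The 12 skeletal muscle markers took 2.09%, 1.82% and 1.5% of counts in WT1 to WT3 and 0.267%, 1.88% and 0.515% in DTR1 to DTR3. DTR2 was thus high in muscle and low in epidermal counts. The 6 adipocyte markers took 0.0105%, 0.0133% and 0.0181% in WT1 to WT3 and 0.00808%, 0.0138% and 0.0105% in DTR1 to DTR3, and the 5 red cell markers 0.00962%, 0.0125% and 0.0217% in WT1 to WT3 and 0.00546%, 0.0089% and 0.00563% in DTR1 to DTR3. The adipocyte share was nearly all Fabp4, with 4524 counts in WT1 and 6624 in DTR2. The other 5 adipocyte markers were lower in every DTR library than in every WT library, for example Adipoq with 95, 199 and 263 counts in WT1 to WT3 and 17, 65 and 26 in DTR1 to DTR3. Over the 6, the median log2 fold change was -2.32. Of them, 5 were at an unadjusted p under 0.05, and edgeR called 0 and DESeq2 4. Over all genes, 7.85% had each DTR library below each WT library, 11% had such a p and DESeq2 called 2.65%, and these shares apply to the red cell markers too. The 5 red cell markers had a median of -1.11, with 5 at an unadjusted p under 0.05, 0 called by edgeR and 4 called by DESeq2. All 12 skeletal muscle markers were lower in DTR on average too, with a median of -0.99. For these, 0 were at an unadjusted edgeR p under 0.05 and DESeq2 called 0. Of the 10 tendon markers, 8 were higher in DTR on average, with a median of 0.31. Among these 10, 3 were at such a p (11% of all genes) and DESeq2 called 1, Thbs4 (2.65% of all genes). Each DTR library lay above each WT library for 3 of them (Scx, Thbs4 and Kera), against 8.96% of all genes. In both the muscle and the tendon list edgeR called 0. Thus the muscle, adipocyte and red cell markers, like the epidermal members, were lower in DTR on average. The part of any of these lists in the epidermal difference was not tested. Adipocyte and red cell shares were both highest in WT3, where the epidermal members had 194 counts in all. Of the muscle, adipocyte, red cell and tendon markers, 0 ranked WT1, WT2, DTR3 and then the rest, an order so rare among all genes (2.89%) that a count of 0 in lists of this size says little.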

How the data were processed

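Bulk RNA-seq was carried out on 6 FDL tendons from 200 ng total RNA each, and single-end reads were counted per gene by the authors with featureCounts after cleaning with FastP. The methods name a TruSeq Stranded mRNA kit, and the labels name a SMARTER mRNA-Seq kit as well, so whether the libraries kept strand is uncertain. The aligner, genome build, annotation and strand setting are not given in the sources used here. The authors deposited raw counts, which were used here. A second deposited table held a normalized signal (the submitters' processing notes name DESeq2 1.22.1). Each of its columns was checked to equal the counts over 1 constant, and it was not used further. Columns were matched to samples by genotype and replicate number in the labels.

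The main test was edgeR 4.0.16 in R 4.3.3 (TMM, filterByExpr, robust quasi-likelihood fit with genotype as the single term, Benjamini-Hochberg adjustment, threshold 0.05), with DESeq2 1.42.0 and limma 3.58.1 voom as alternatives. Script steps were tested on simulated data. "Normalized counts" are TMM-scaled to the mean library size. Values per length used the union of exons in GENCODE vM21, matched by symbol for all 150 members. Exact 95% Clopper-Pearson intervals cover counting error only. Separately, 3 counts were taken as the limit of a count of 0, and the upper end of the exact interval for 0 lies somewhat above that. Members, gene lists and tests were chosen with earlier results of these data known. Named members were the 9 classic epidermal genes (Krt5, Krt14, Krt1, Krt10, Lor, Flg, Ivl, Dsg1a, Dsc1), the 4 with the highest mean in each role with a count, and tested members whose genotypes did not overlap, with the 4 most abundant genes of each list outside the rule. Other genes named were chosen after their values were seen, and the values of 1 gene are not reported here. The study describes the 3 tendons per genotype as biological samples, and counts of every replicate pair differed beyond sampling noise. Alternatives covered the test, normalization, filter, replicate block and each library left out.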

Additional observations from a re-analysis of the deposited data

How the results depend on the processing

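No member was called by edgeR, DESeq2 or limma-voom under any alternative. Over all genes, edgeR called 0, DESeq2 466, edgeR with no filter on low counts 83 and with the replicate block 1. Leaving out 1 library gave 0 to 544, the highest without DTR replicate 2, and the cause was not tested. Correlations of deviations between genotypes were -0.188, -0.149 and -0.684 for the same replicate numbers. The deviations were taken from the mean of each genotype, with 3 libraries in each. These correlations therefore cannot show whether the samples were paired. Under the block the epidermal median log2 fold change was -6.52.

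That median, -3.50, ranged from -12.14 (without DTR3) to -2.53 with 1 library left out. Without WT1, WT2 and DTR3, left out after their epidermal counts were seen, it was 0.20 for Krt10 alone, a value that follows from that choice and tests nothing. The hair median, -1.99 over 2 genes, ranged from -5.16 (without DTR3) to 0.97 (without WT1), and was 0.65 without the 3 libraries, from Krt25 alone. No hair member had at least 10 counts in every library, so that setting gave no value.

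Of 454 values for 34 named tested members, 439 kept their direction and 15 reversed. With 1 library left out, the log2 fold change of Krt222 ranged from -0.24 (without DTR2) to 0.19 (without DTR1) and was 0.09 without WT2. Krt25 ranged from -4.21 (without DTR3) to 2.43 (without WT1), Krt6a from -6.09 (without DTR3) to 0.18 (without WT1), and Krt18 from -1.47 (without DTR2) to 0.65 (without WT1), with 0.33 without DTR1 and 0.17 without DTR3. Krt8 was 4.12 without WT1 and -0.50, -0.20 and -0.15 without DTR2, WT2 and WT3. Without DTR3, Krt23 was -3.00 and Krt10 -7.56, and genes at or near 0 in DTR1 and DTR2 moved further (Krt14 -12.93, Lor -12.33, Krt24 -14.49, Flg -14.58, Krt5 -15.17, Krt1 -16.28 and Krt2 -18.17), sizes that depend on the fit. Without the 3 libraries Krt222 was 0.02, Krt25 0.65, Krt10 0.20, Krt23 6.07 and Krt18 0.52. Shares of counts kept the libraries' high and low sides under both alternatives, the share without the most abundant member and the share of tested genes. Most hair genes had fewer than 10 counts in every library, so their differences could not be resolved at this depth.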

Other observations

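Suprabasin (Sbsn), a secreted protein of differentiating epidermis, was high in every library and lower in all 3 DTR libraries than in all 3 WT libraries. It had 8016, 5583 and 3311 normalized counts in WT1 to WT3 and 1492, 2030 and 2413 in DTR1 to DTR3. Its log2 fold change was -1.51 (SE 0.37), with an edgeR p of 0.0083 before and 0.347 after Benjamini-Hochberg adjustment, while the DESeq2 adjusted p was 2.5e-05. Within each genotype its order followed the epidermal counts (WT1 over WT2 over WT3, and DTR3 highest in DTR), and WT3, with 167 counts of Krt10, had 3184 of Sbsn. Ppl, periplakin of the desmosomes and the cornified envelope, separated the genotypes in the same direction, with an edgeR adjusted p of 0.474. These genes were singled out after their values were seen, and the part of epidermal RNA in their difference was not tested.

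Among hair genes outside the symbol rule, Dlx3 had 324, 311 and 227 counts in WT1 to WT3 and 209, 112 and 163 in DTR1 to DTR3 (log2 fold change -0.81, SE 0.28, edgeR adjusted p = 0.401). Trichohyalin (Tchh), a protein of the inner root sheath, had 503, 208 and 226 counts in WT1 to WT3 and 200, 157 and 201 in DTR1 to DTR3, and was therefore counted in WT2, WT3, DTR1 and DTR2, where Krt71 was at 0.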
